A study of Homo sapiens with 2 samples.

Results

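The receptor-type tyrosine phosphatases examined here are the 10 genes PTPRK, PTPRM, PTPRT, PTPRU, PTPRC, PTPRF, PTPRS, PTPRD, PTPRG and PTPRJ, among 57773 genes counted in each library. They were chosen by symbol, with reads of the same libraries already known, so their values are given as a description and carry no test. RNA had been sequenced from REH and 697, both human lines of acute lymphoblastic leukemia of B-cell precursors (BCP-ALL), with 1 library per line and no replicates. The ETV6/RUNX1 fusion is present in REH, whose remaining ETV6 allele is lost, whereas 697 is negative for that fusion. The labels name no treatment of either line, both were grown in the same serum-supplemented RPMI medium, and each derives from the leukemia of a single patient, so that fusion, donor and culture cannot be told apart. The study reports PTPRK as high in patient samples with the fusion, and as lowered in REH by knockdown of the fusion. It also reports a fall of PTPRK after knockdown of a long non-coding RNA in REH. None of those data are analysed here.

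Protein tyrosine phosphatases remove the phosphate that tyrosine kinases add. The receptor-type members span the plasma membrane once, with an ectodomain that meets ligands or neighbouring cells and a cytoplasmic part that holds the catalytic domain. The best known of them in lymphocytes is PTPRC (CD45), which activates Src-family kinases by removing an inhibitory phosphate. The R2B subclass (PTPRK, PTPRM, PTPRT, PTPRU) mediates contacts between like molecules on adjacent cells, and the R2A or LAR subclass (PTPRF, PTPRS, PTPRD) binds proteoglycans and synaptic adhesion proteins.

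The REH library held 45188375 reads in genes and the 697 library 41097497. Markers of B-cell precursors were present in both lines. Of the 12 markers listed, 10 differed by less than a log2 ratio of 2, VPREB1 of the surrogate light chain had 3 reads in REH against 10039 in 697, and CD79B was higher in REH at a log2 ratio of 2.001. Markers of other cells were low, with summed levels of 0.935 and 0.0271 CPM (reads scaled by library depth) for T-cell genes in REH and 697, 0.418 and 0.460 CPM for erythroid genes, 0.358 and 0.271 CPM for endothelial genes and 2.45 and 2.14 CPM for neural and epithelial genes. Stromal genes summed to 33.3 and 64.7 CPM, which apart from 1 read of DCN came from COL1A1 and PDGFRB, while COL1A2, COL3A1 and LUM had 0 reads. Myeloid genes summed to 252.7 CPM in REH and 2.25 CPM in 697. In REH nearly all of this was MPO, the neutrophil peroxidase (12643 reads, against 12 in 697), and in 697 most of it was CSF1R, the receptor of a macrophage growth factor (61 reads, against 30 in REH), whereas LYZ had 1 and 2 reads and ELANE had 0. The part of MPO-expressing cells in the phosphatase values was not tested, and in bulk RNA fewer expressing cells and less RNA per cell cannot be told apart.

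Of the 10 phosphatases, 8 reached 10 reads in REH or 697, and each of these did so in both. PTPRT had 0 reads in both lines. PTPRS had 0 reads in REH and 3 in 697, which is at the floor of what this depth can show (3 reads, or 0.0597 CPM in REH and 0.0812 CPM in 697). Of the 8, 1 was higher in REH and 2 were higher in 697 by a log2 ratio of at least 2, a difference of at least 4-fold. Among all 19145 genes that reached 10 reads in either line, 12.5% passed this threshold toward REH and 8.15% toward 697. For protein-coding genes these shares were 10.9% and 7.17%, and for genes that reached 100 reads they were 8.81% and 6.92%. The median log2 ratio (REH over 697) was -0.15 over the 8 phosphatases and 0.05 over all genes. Every ratio compares 1 library with 1 library, and the 95% intervals given cover counting error only.

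Among the 10 phosphatases the widest contrast was that of PTPRK, of subclass R2B. PTPRK, a homophilic adhesion receptor that acts on junction proteins and growth factor receptors, had 12557 reads in REH and 19 in 697, or 249.8 and 0.514 CPM. REH was thus the line with abundant PTPRK reads, and in 697 the gene was near the lower end of what could be counted. The log2 ratio was 8.89 (interval 8.28 to 9.66), a 473-fold difference, and ranked 172 of the 19145 genes from the REH end. Per kb of exon, PTPRK stood above 90.3% of the protein-coding genes tested in REH and above 9.42% of them in 697. Of the other R2B members, PTPRM, which binds its own kind and associates with cadherin complexes, had the opposite sign with 946 reads in REH and 1703 in 697 (18.8 and 46.1 CPM, log2 ratio -1.29, interval -1.41 to -1.18). PTPRU had 45 and 20 reads, and its interval of -0.06 to 1.56 around a log2 ratio of 0.71 included 0.

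Among the LAR phosphatases, PTPRF (LAR itself) was abundant in both lines, and PTPRD was higher in 697. PTPRF had 8241 reads in REH and 5619 in 697 (163.9 and 152.1 CPM), with a log2 ratio of 0.11 (interval 0.06 to 0.16). PTPRD, a partner of synaptic adhesion molecules that is often deleted in solid tumors, had 510 reads in REH and 2446 in 697, or 10.1 and 66.2 CPM. This made PTPRD 6.52-fold higher in 697 (a log2 ratio of -2.70, interval -2.85 to -2.57).

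The remaining members are each the listed representative of another subclass. PTPRC, the CD45 antigen of R1, had 4012 reads in REH and 3923 in 697, or 79.8 and 106.2 CPM (a log2 ratio of -0.41, interval -0.48 to -0.35). Gene counts do not tell the CD45RA and CD45RO splice forms apart. PTPRG of R5, whose ectodomain binds contactins, had 1882 reads in REH and 6540 in 697, or 37.4 and 177.0 CPM, which made it 4.73-fold higher in 697 (a log2 ratio of -2.24, interval -2.32 to -2.17). PTPRJ of R3 (CD148), which also acts on Src-family kinases, had 520 reads in REH and 124 in 697. Its levels were 10.3 and 3.36 CPM, and its log2 ratio of 1.62 (interval 1.34 to 1.92) was short of the threshold. Just inside the threshold was thus PTPRG, and just outside it PTPRJ.

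**Figure D1:**
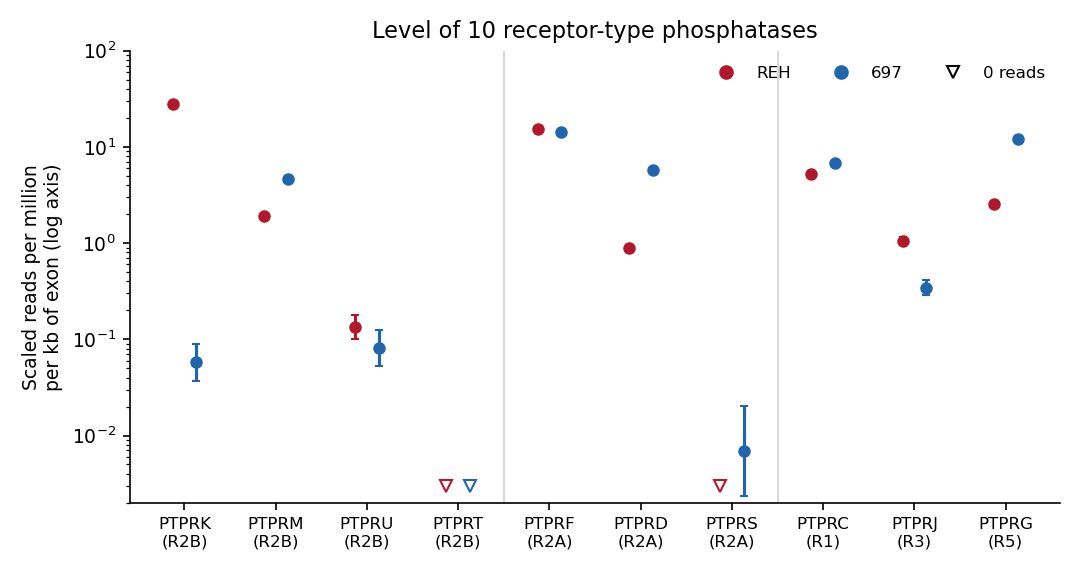
Level of each phosphatase in REH (red) and 697 (blue), in scaled CPM per kb of exon on a log axis, with 95% Wilson counting intervals and open triangles for 0 reads. PTPRK is at 28.0 in REH and 0.0575 in 697, while PTPRF is at 15.3 and 14.2.

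Library scaling mattered for the smaller differences. When library totals alone were used, all log2 ratios shifted by 0.31 toward REH, and the median of all genes moved from 0.05 to 0.36. PTPRG then had a log2 ratio of -1.93, so that PTPRD alone was called higher in 697. The sign of each of the 8 ratios was the same with every scaling tried, although PTPRC came as near to 0 as -0.10.

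**Figure D2:**
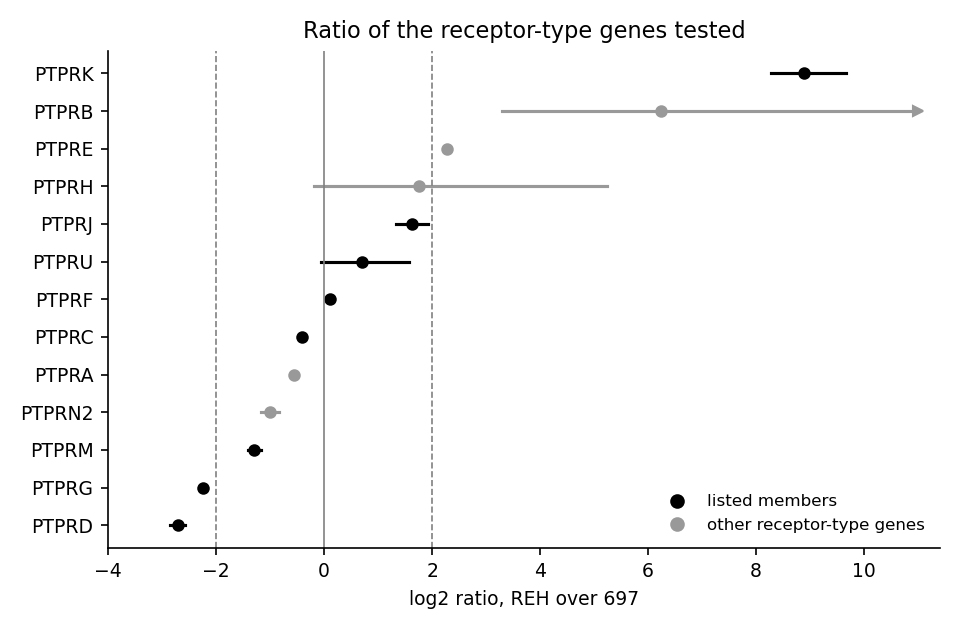
Log2 ratio (REH over 697) of the 13 receptor-type genes that reached 10 reads in either line, with 95% counting intervals as lines, dashed lines at 2 and -2, and an arrow where the interval has no upper end. PTPRK lies at 8.89, far from the other listed genes, which lie between -2.70 and 1.62.

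Positions are those of GENCODE 44 on GRCh38, since the annotation used for counting is not given in the sources used here. PTPRK lies on chromosome 6 (127968785 to 128520616, minus strand), PTPRD on chromosome 9 (8314246 to 10613002, minus strand), PTPRG on chromosome 3 (61561569 to 62297609, plus strand) and PTPRC on chromosome 1 (198638457 to 198757476, plus strand). Their promoters are shown because these are the genes past the threshold and, for contrast, the lymphocyte phosphatase that differed little. The bases are from the RefSeq table for GRCh38.p14, 5′ to 3′ on the strand of the gene, and end before the first annotated exon base of the gene in the window. Capitals mark CpG dinucleotides. The PTPRC window belongs to a start downstream of the outermost start in GENCODE. The windows are chr6:128520617-128520849, chr9:10613003-10613252, chr3:61561321-61561568 and chr1:198638790-198638967.
PTPRK: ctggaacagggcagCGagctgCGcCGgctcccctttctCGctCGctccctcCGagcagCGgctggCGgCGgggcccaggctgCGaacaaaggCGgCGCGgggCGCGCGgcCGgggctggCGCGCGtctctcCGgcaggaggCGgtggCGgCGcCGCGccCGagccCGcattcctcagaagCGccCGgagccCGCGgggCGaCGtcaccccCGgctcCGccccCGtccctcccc
PTPRD: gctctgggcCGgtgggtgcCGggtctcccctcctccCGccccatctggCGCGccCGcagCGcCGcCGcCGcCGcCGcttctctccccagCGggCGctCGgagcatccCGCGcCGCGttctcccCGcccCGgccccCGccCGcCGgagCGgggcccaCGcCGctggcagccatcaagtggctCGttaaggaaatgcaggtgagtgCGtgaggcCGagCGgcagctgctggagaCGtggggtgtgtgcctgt
PTPRG: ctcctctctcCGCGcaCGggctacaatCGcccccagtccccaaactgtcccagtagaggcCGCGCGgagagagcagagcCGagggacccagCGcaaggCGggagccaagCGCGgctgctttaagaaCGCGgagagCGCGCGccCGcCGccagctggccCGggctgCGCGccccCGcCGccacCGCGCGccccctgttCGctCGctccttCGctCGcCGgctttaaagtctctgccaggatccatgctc
PTPRC: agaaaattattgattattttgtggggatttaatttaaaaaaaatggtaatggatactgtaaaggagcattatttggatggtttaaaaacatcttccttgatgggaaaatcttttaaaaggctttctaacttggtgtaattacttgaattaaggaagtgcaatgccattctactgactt

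CpG content differed between the starts of these genes. Over the full window of 300 bases, PTPRC had 1 CpG and 33.7% G and C, whereas PTPRK had 44 CpG, PTPRD 40 at its outermost start and PTPRG 34. Inner starts of its relatives were also low, with 2 CpG for PTPRM and 4 and 7 for PTPRD. The median of 35116 promoters was 14 CpG (interquartile range 4 to 28), and 10.97% of them had at most 1. RefSeq windows were found for 9 of the 10 phosphatases. Of these, 8 had a window with more than 28 CpG, including PTPRS (55) and PTPRT (53), which had few or no reads. The RUNX letters TGTGGT, searched on both strands, occurred in 1 of the 12 windows of these genes (an inner start of PTPRM) and in 13.1% of all promoters, and TGCGGT occurred in none of the 12 and in 7.29% of all. The E-box CAGGTG (20.6% of promoters) was found in the outermost PTPRD window, CACGTG (7.26%) in that of PTPRS, and the ETS letters CCGGAAGT (4.14%) in none. These matches are letters in a window and not measured binding.

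Levels between genes were compared per kb of exon. In REH the order was PTPRK (28.0 scaled CPM per kb), PTPRF (15.3), PTPRC (5.17), PTPRG (2.56), PTPRM (1.90), PTPRJ (1.06), PTPRD (0.885) and PTPRU (0.134). In 697 it was PTPRF (14.2), PTPRG (12.1), PTPRC (6.88), PTPRD (5.77), PTPRM (4.66), PTPRJ (0.345), PTPRU (0.0810) and PTPRK (0.0575). PTPRF and PTPRC kept a high place in both lines, while PTPRK went from the top in REH to below PTPRU in 697. Counting intervals of neighbours in these orders overlapped for PTPRU and PTPRK in 697 and for PTPRS and PTPRT in both lines, and for no other neighbours. The spread between cultures is unknown.

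The summed level of the 10 genes was 55.0 in REH and 44.1 in 697. PTPRK made up 50.9% of the sum in REH and 0.131% in 697, and without it the other 9 genes summed to 27.0 in REH and 44.04 in 697. By subclass, R2B took 54.6% of the sum in REH and 10.9% in 697, R2A took 29.5% and 45.3%, R5 took 4.66% and 27.4%, R1 took 9.41% and 15.6%, and R3 took 1.93% and 0.782%. The summed levels of the subclasses thus lay in a different order in each line, with R2B ahead in REH, mostly through PTPRK, and R2A ahead in 697.

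Of the other 10 receptor-type genes, 5 reached 10 reads in either line, and 2 were higher in REH and 0 in 697. Among all genes tested, 12.5% passed the threshold toward REH and 8.15% toward 697. PTPRE, a close relative of PTPRA, had 22309 reads in REH and 3371 in 697 (a log2 ratio of 2.28, interval 2.23 to 2.33). PTPRB, an endothelial phosphatase, had 51 reads in REH and 0 in 697, or 12.5-fold more against the floor of 3 reads. It reached 10 reads only in REH. PTPRA, which also acts on Src kinases, had 7077 and 7699 reads (a log2 ratio of -0.57, interval -0.61 to -0.52). Over all 20 receptor-type genes, PTPRK took 21.1% of the summed level in REH, behind PTPRE (29.9%) and PTPRA (27.1%), and 0.0526% in 697. In 697 PTPRA took 48.7%, PTPRF 12.98% and PTPRG 11.1%.

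**Figure D3:**
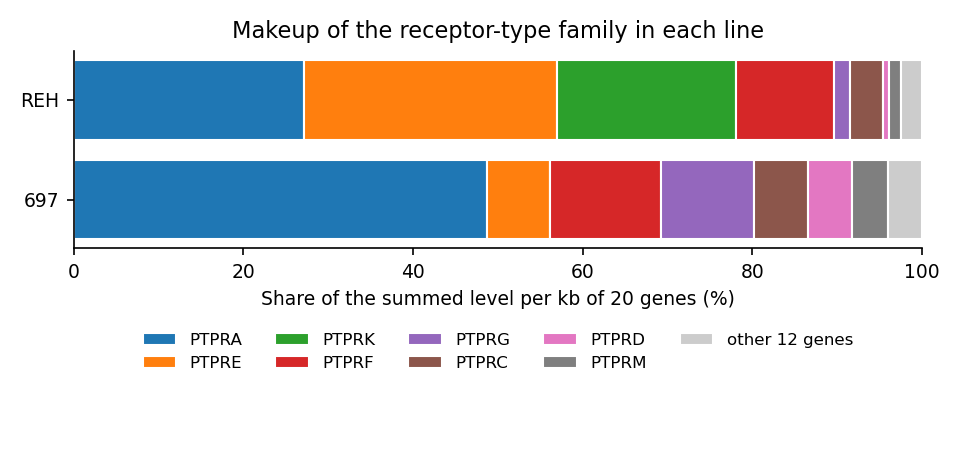
Share of each gene in the summed level per kb of exon of the 20 receptor-type genes, as stacked bars that total 100% in each line. The PTPRK segment (green) is 21.1% in REH and too thin to see in 697 (0.0526%), where PTPRA takes 48.7%.

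The strand columns, which did not enter the choice of genes, split the reads of the phosphatases evenly. For PTPRK in REH, 49.6% of the strand-assigned reads lay on the strand of the gene (95% Wilson interval 48.7% to 50.4%), and for PTPRG in 697 the share was 50.4% (49.3% to 51.6%). Counting each strand apart added 589 reads to PTPRK in REH and 166 and 632 to PTPRG in REH and 697, reads that were ambiguous with strands pooled and made up 4.48%, 8.11% and 8.81% of the sums of both strands. Exons of PTPRK-AS1 (2 reads in REH, 0 in 697) and PTPRG-AS1 (28 and 11 reads) overlap these genes on the opposite strand by 173 and 1343 bases. Without strand information, sense and antisense reads in such stretches cannot be told apart. PTPRD-AS1, which lies opposite to PTPRD without shared exon bases, had 1 read in REH and 108 in 697. Its count was thus higher in the same line as that of PTPRD, with an interval of -12.52 to -4.69 around a log2 ratio of -6.62. Unspliced reads of PTPRD over those bases cannot be told apart from reads of PTPRD-AS1 either, and their part was not tested.

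The genes that flank the phosphatases past the threshold did not share their ratios throughout. No other protein-coding gene that reached 10 reads starts within 1 Mb of the start of PTPRK or PTPRD. The nearest ones to PTPRK were ARHGAP18 upstream (260 and 252 reads, log2 ratio -0.40, interval -0.65 to -0.14) and C6orf58 downstream (14 and 2 reads, log2 ratio 2.09, interval 0.24 to 5.54). The nearest ones to PTPRD were NFIB upstream and DMAC1 downstream, with starts at -3786 kb and 2725 kb from that of PTPRD. NFIB, a developmental transcription factor, had 0 reads in REH and 84 in 697, and so reached 10 reads only in 697. DMAC1 had 2078 and 2146 reads (log2 ratio -0.49). Upstream of PTPRG lies FHIT, a gene at a fragile site, which had 2193 reads in REH and 144 in 697, a log2 ratio of 3.48 (interval 3.24 to 3.74) with the sign opposite to that of PTPRG. Downstream of PTPRG, CADPS had 27 and 43 reads. Over all members, 108 protein-coding neighbours within 1 Mb were tested, of which 16 were higher in REH and 2 in 697 (16.7% in either direction, against 18.1% of all protein-coding genes).

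The non-receptor tyrosine phosphatases work inside the cell. Of 17 genes, 14 were tested, of which 2 were higher in REH and 1 in 697, with a median log2 ratio of -0.58, and 20.7% of all genes tested passed the threshold in either direction. PTPN13, a large scaffold phosphatase, had 2639 reads in REH and 0 in 697, or 647-fold more against the floor of 3 reads. PTPN14 had 225 and 12 reads (a log2 ratio of 3.73, interval 2.95 to 4.76). PTPN7, a lymphoid phosphatase of MAP kinases, had 607 reads in REH and 2143 in 697 (a log2 ratio of -2.26). The most abundant per kb were PTPN1 (5115 and 3130 reads) and PTPN11 (8883 and 9581 reads), with log2 ratios of 0.26 and -0.55.

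Src-family kinases are the main substrates of CD45, and CSK, held at the membrane by PAG1, places the inhibitory phosphate that CD45 removes. Of the 10 genes listed, 9 were tested, with 2 higher in REH, 1 higher in 697 and a median log2 ratio of 0.04. The share past the threshold was 33.3%, against 20.7% of all genes tested. PAG1 had 31457 reads in REH and 1824 in 697 (a log2 ratio of 3.66, interval 3.60 to 3.73). LYN had 577 reads in REH and 2889 in 697 (a log2 ratio of -2.77, interval -2.90 to -2.64). BLK, the B-lineage kinase, had 5516 and 9553 reads (a log2 ratio of -1.24). REH thus had the higher PAG1 and 697 the higher LYN, beside CD45 levels of 79.8 and 106.2 CPM.

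Of 5 genes listed as partners of CD45 or for its splicing, all were tested. With 1 higher in 697, 20% passed the threshold, near the 20.7% of all genes tested. The median log2 ratio was -1.89. That median is the value of HNRNPLL, listed for splicing, with 927 reads in REH and 2527 in 697. LGALS1, the lectin galectin that binds CD45 glycans, had 106 reads in REH and 2598 in 697 (a log2 ratio of -5.05, interval -5.35 to -4.78). PTPRCAP, the CD45-associated protein, had 1120 and 3181 reads, and its log2 ratio of -1.95 (interval -2.05 to -1.85) was just short of the threshold. CD22, an inhibitory receptor, had 10849 and 13271 reads (a log2 ratio of -0.73).

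Adhesion proteins that serve as substrates or partners of the R2B phosphatases were next counted. Of 9 listed, 8 were tested, with 0 higher in REH, 2 higher in 697 and a median log2 ratio of -1.04. The 25% past the threshold is near the 20.7% of all genes tested. CDH2, N-cadherin, had 1 read in REH and 1963 in 697 (a log2 ratio of -10.80, interval -16.69 to -8.90). CTNND1, p120 catenin, had 1203 and 4790 reads (a log2 ratio of -2.44, interval -2.53 to -2.35). JUP, plakoglobin, was the most abundant with 38710 and 12129 reads (a log2 ratio of 1.23), followed by CTNNA1 with 8560 and 12485 (a log2 ratio of -0.99). CDH2 met the minimum of reads only in 697, and JUP and CTNNA1 were short of the threshold. Also short of it were CTNNB1 and AFDN, lower in REH at log2 ratios of -1.41 and -1.09. PXN and BCAR1 had log2 ratios of 0.72 and 0.33, and the interval of BCAR1 (-0.32 to 1.01) included 0. The genes tested thus differed in both directions, and a link of any of them to PTPRK was not tested.

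Ligands and heparan sulfate proteoglycans of the receptor-type phosphatases were mostly either silent or unequal. Of 20 genes, 11 were tested, with 6 higher in REH, 1 higher in 697 and a median log2 ratio of 4.69. The median was 2.06 when the 4 genes with 0 reads in a library were set at the floor of 3 reads there. Of those tested, 63.6% passed the threshold in either direction, against 20.7% of all genes tested. Those 4 genes, and SDC1, reached 10 reads only in the line where they were higher, so this share rests in part on the filter. SDC1, the syndecan CD138, had 2677 reads in REH and 3 in 697 (a log2 ratio of 9.14, interval 7.81 to 11.64). The glypican GPC1 had 1245 and 16 reads (a log2 ratio of 5.79, interval 5.13 to 6.65), and SDC3 had 616 and 12 (a log2 ratio of 5.18, interval 4.42 to 6.20). GPC4 had 219 and 0 reads, or 53.7-fold more in REH against the floor of 3 reads. CNTN5, a contactin that binds PTPRG, had 0 reads in REH and 121 in 697, or 54.9-fold more in 697 against that floor. CNTN6, another contactin, went the other way with 17 reads in REH and 0 in 697, or 4.17-fold more in REH against that floor. MDK (midkine) was the most abundant, at 392.3 and 387.2 CPM in REH and 697 (a log2 ratio of 0.02, interval -0.01 to 0.05), and its relative PTN had 0 reads in both lines. GPC2 (1247 and 1800 reads, log2 ratio -0.97) came next by the mean level per kb of both lines, although SDC1 and HSPG2 were above it in REH.

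**Figure D4:**
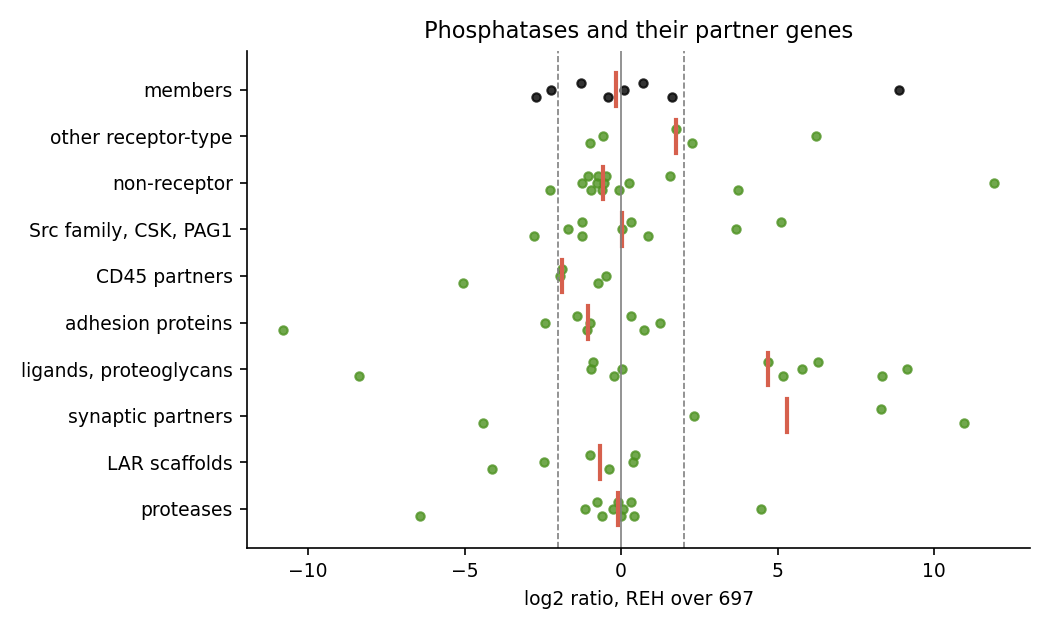
Log2 ratio (REH over 697) of each gene tested in the phosphatase and partner lists, 1 point per gene, with the median of a list as a red bar and dashed lines at 2 and -2. The proteoglycan and ligand list has its median at 4.69 (2.06 with its genes without reads in a library at their bound), the members at -0.15 and the proteases at -0.09.

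Of 10 synaptic partners of the LAR phosphatases, 4 were tested, with 3 higher in REH and 1 in 697, while 20.7% of all genes tested passed in either direction. All but LRRC4B reached 10 reads only in the line where they were higher. Their calls were thus largely set by the filter, and no conclusion is drawn from the count. IL1RAP, the shared chain of interleukin receptors of the IL1 family, had 1355 reads in REH and 0 in 697, and SLITRK5 had 214 and 0. Against the floor of 3 reads these were 332-fold and 52.4-fold more in REH. LRRC4B had 1316 and 193 reads (a log2 ratio of 2.32, interval 2.11 to 2.55). The gene higher in 697, NTRK3, had 1 and 23 reads. The median log2 ratio of these 4 was 5.31, or 4.02 with the 2 genes without reads in 697 set at the floor of 3 reads.

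On the cytoplasmic side, 6 of 7 scaffold genes of the LAR phosphatases were tested, with 0 higher in REH, 2 higher in 697 and a median log2 ratio of -0.68. Of those tested, 33.3% passed the threshold, against 20.7% of all genes tested. The liprin PPFIA4 had 453 reads in REH and 5759 in 697 (a log2 ratio of -4.11, interval -4.25 to -3.97), and PPFIBP1 had 2156 and 8796 (a log2 ratio of -2.47, interval -2.54 to -2.40). TRIO, an exchange factor bound by LAR, had 8269 and 11952 reads (a log2 ratio of -0.98). Of the 11 proteases and gamma-secretase subunits that cut these receptors, all were tested, with 1 gene past the threshold in each line and a median log2 ratio of -0.09. This share of 18.2% is near the 20.7% of all genes tested. PCSK6 had 38 reads in REH and 2403 in 697 (a log2 ratio of -6.41, interval -6.93 to -5.97), and PCSK5 had 105 and 3 (a log2 ratio of 4.47, interval 3.10 to 6.99). ADAM10 (8176 and 10227 reads) and the gamma-secretase subunit APH1A (7317 and 4344) were the most abundant per kb, with log2 ratios of -0.77 and 0.31.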

How the data were processed

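RNA sequencing of REH and 697 was analysed, with 1 library per line, and each was assigned by its labelled cell line. The deposited values are raw read counts per gene, neither normalized nor filtered. The authors, by the study's methods, aligned reads to hg38 with STAR, whereas the submitters' processing notes name hg19. The annotation is not given in the sources used here. STAR counts uniquely mapped reads, and the column of both strands was used, since 50.1% and 50.2% of strand-assigned gene reads lay on the strand of the gene although the labels call the libraries ribodepleted and stranded. The study's methods name poly(A) selection instead, which was not settled here. Reads in genes made up 70.7% (REH) and 69.7% (697) of all reads. Reads mapped to several places (10.8% and 15.4%), outside genes (12.7% and 9.32%), ambiguous (4.58% and 4.41%) or unmapped (1.21% and 1.20%) were left out.

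Symbols came from GENCODE 44 by gene ID (51996 matched, 5777 did not). Genes that reached 10 reads in either line were tested (19145). Totals were scaled by TMM in edgeR 4.0.16 under R 4.3.3 (factors 1.11 and 0.899), and CPM, the depth-normalized count, was computed from them. The log2 ratio is REH over 697 with 0.5 reads added. Its 95% interval is an exact one (Clopper-Pearson) on the REH share of reads, and intervals of 1 library are Wilson intervals. Intervals and floors cover counting error only, as reads without molecular identifiers are not independent molecules. Levels per kb use the merged exons of GENCODE 44, which include rare transcripts. The study used DESeq2, which needs replicates, so no p-value is given. The computation was tested on simulated data. Members and lists were chosen with earlier results of these data known. Beside the members, the text names in each list up to 5 genes past the threshold with at least 100 reads in a library, the 2 most abundant per kb in the mean of both lines, and the nearest tested coding gene on each side of a member past the threshold. PTPRB, PTN, NTRK3, CNTN6, HSPG2, HNRNPLL, the marker genes and the antisense genes were named outside that rule after their values were seen. The same holds for CTNNB1, AFDN, PXN and BCAR1. Protein features planned at the outset were not analysed here, nor was the T-cell marker TRAC. A gene of the Src-family list that the rule names is counted but not reported here. Alternatives were each strand column, another threshold, 5 added reads, other minimum reads, TMM on protein-coding genes, library totals and the size factors of DESeq2 1.42.0. Figures were drawn with matplotlib 3.10.9, and computation used scipy 1.17.1, numpy 2.4.6 and pandas 2.3.3 in Python 3.11.15.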

Additional observations from a re-analysis of the deposited data

How the results depend on the processing

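No paired analysis was possible because the design holds 1 library of each line, and for the same reason no replicate could be left out. PTPRK was called higher in REH under each alternative. Under the 6 alternatives for which changed ratios were recorded, its log2 ratio lay between 8.59 and 9.19, and each of the 8 phosphatases kept the sign of its ratio. Other minimum reads also rescaled the totals slightly, but only their calls were recorded. PTPRD stayed past the threshold in 697 under each alternative, at -2.79 to -2.40 under those 6. With library totals only, 1 phosphatase was higher in 697, since PTPRG fell to -1.93. At a log2 ratio of 1, the phosphatases higher in REH were 2 (PTPRJ beside PTPRK) and those higher in 697 were 3 (PTPRM beside PTPRD and PTPRG), the other receptor-type genes past the threshold were 4, and 4293 genes in all were higher in REH and 3336 in 697. When 1 read sufficed, 697 had 4410 higher genes, and PTPRS with its 3 reads joined PTPRD and PTPRG. When 50 reads were required, REH had 1477 higher genes and 697 had 1036, and PTPRU was no longer tested. The partner lists, whose alternatives were added after seeing the data, held between 22 and 36 genes past the threshold against 24 in the main comparison. Depth limits PTPRS, PTPRT and PTPRU, and without replicates no ratio carries the spread between cultures.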

Other observations

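Some neighbours of phosphatases short of the threshold or without reads were themselves past it. These genes were chosen after their values were seen. Within 1 Mb of the start of PTPRJ, 20 protein-coding genes were tested, of which 5 were higher in REH and 0 in 697, against 10.9% of all protein-coding genes toward REH. AGBL2 (256 and 0 reads), MYBPC3 (27 and 0) and FAM180B (88 and 3) among these 5 reached 10 reads only in REH. The count thus rests in part on the filter, and no conclusion is drawn from it. Over the neighbours of all 10 phosphatases, 16.7% of 108 passed in either direction, against 18.1% of all protein-coding genes. The 5 genes near PTPRJ include SPI1, which encodes the myeloid and B-lineage factor PU.1, with 2810 reads in REH and 19 in 697 (a log2 ratio of 6.73, interval 6.12 to 7.50). Within 1 Mb of PTPRC, DENND1B, a regulator of vesicle traffic, had 1282 reads in REH and 2 in 697 (a log2 ratio of 8.56, interval 7.02 to 11.93), whereas NEK7 had 3421 and 3359 reads and a log2 ratio of -0.42, next to -0.41 for PTPRC. Near PTPRF, the endothelial receptor kinase gene TIE1 had 923 and 20 reads (a log2 ratio of 5.05). Near the silent PTPRT, TOX2 had 9 reads in REH and 456 in 697 (a log2 ratio of -6.03). JPH2 went the other way with 1195 reads in REH and 106 in 697 (a log2 ratio of 3.04), and the other 6 of the 8 neighbours tested there were short of the threshold. DENND1B and TOX2 reached 10 reads only in the line where they were higher.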
